A study of Homo sapiens with 11 samples.

Results

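The regions described here are the wide m6A peaks of A549 cells that were found in both immunoprecipitations. They were chosen from the peak list of A549 immunoprecipitation 1 (replicate 1) as peaks of at least 1000 bp that share at least 1 bp with a peak of A549 immunoprecipitation 2 (replicate 2). Of the 25074 peaks of replicate 1, 1427 met the rule, or 5.69% of the peaks and 24.1% of the bases in the list. The rule did not use H1299, the other lung cancer line of the study.

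N6-methyladenosine (m6A) is a methyl mark on adenosines inside mRNA, written in the nucleus by a complex whose catalytic subunit is METTL3. It is laid down mostly in long internal exons and around stop codons, in a short sequence context, and is bound by reader proteins that act on translation and decay. In m6A immunoprecipitation, fragmented RNA is pulled down with an antibody and sequenced. A peak is therefore a stretch where pulled-down fragments pile up, not a single methylated base, and several marks that lie close together can give 1 wide peak.

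A549 and H1299 are established human lung cancer cell lines, grown in DMEM with fetal bovine serum. For m6A, fragments of poly(A) RNA were captured with a Synaptic Systems antibody to the mark, and the study gives 2 lists of peaks in A549 and 1 in H1299. The labels name no treatment or genetic change for these samples, and do not say whether the 2 A549 immunoprecipitations came from separate cultures. The series also holds RNA libraries of shGFP and shMETTL3 cells of each line, used here only for marker genes. In the shGFP libraries the 5 epithelial markers (EPCAM, KRT8, KRT18, KRT19 and CDH1) stood at 22.6 to 8964 in A549, and at 0 to 1364 in H1299, in the authors' scaled signal. Each was lower in H1299, where KRT19 was listed at 0, EPCAM at 0.4 and CDH1 at 1. Of 3 mesenchymal markers, VIM stood at 7562 in A549 and 14995 in H1299, CDH2 at 200 and 438, and ZEB1 the other way round at 47.6 and 32.7. The leukocyte markers PTPRC and CD14 stood at 0.26 and 8.68 in A549, and at 0.2 and 0.6 in H1299, while CD3E was not listed. Of the fibroblast markers, COL1A1 stood at 59.7 in A549 and 12.5 in H1299, and COL1A2 at 0.26 and 0. DCN was not listed in A549 and stood at 0 in H1299. The endothelial markers PECAM1 and CDH5 stood at 16.6 and 1.84 in A549, and at 8.4 and 0.2 in H1299.

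The A549 and H1299 lists differ in peak number and width. The A549 lists hold 25074 and 26644 peaks over 9.09 and 8.77 Mb, with median widths of 224 and 216 bp. The H1299 list holds 39235 peaks over 42.0 Mb, with a median width of 795 bp and no peak narrower than 271 bp. Peaks of at least 1000 bp made up 5.75% of A549 replicate 1, 4.36% of replicate 2 and 35.7% of H1299. Replicate 2 and H1299 carry a score per peak, given by the authors, which starts at 50 in each. In H1299, 264 peaks share a score of exactly 3100 and 47 lie above it. No source used here states what the score measures, and scores are set beside each other only within a list. Replicate 1 has the score 0 throughout. Read counts per peak are not in these lists, so depth is unknown. With 2 A549 lists and 1 H1299 list, no comparison below has a test over samples. Peaks of a list are not replicates, and the exact binomial (Clopper-Pearson) intervals given beside shares, at 95%, cover counting error only.

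The widest regions ran over many kilobases in both A549 lists, with edges that in several cases matched to a few bases. The widest lay at chr11:1262082-1273010 (hg19) and measured 10929 bp in replicate 1. In replicate 2 it was 2 peaks of 1240 and 9659 bp, with scores of 697 and 3100, which covered 99.6% of it. The H1299 list has no peak there. The next, chr8:144989316-145000191, measured 10876 bp in replicate 1. Replicate 2 has peaks of 7293 and 3502 bp over it, and H1299 has 1 peak of 11373 bp with a score of 3100. These were the 2 longest nuclear regions of the list, and they differed in H1299: one is absent from that list, the other present at nearly its whole A549 extent.

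**Figure D1:**
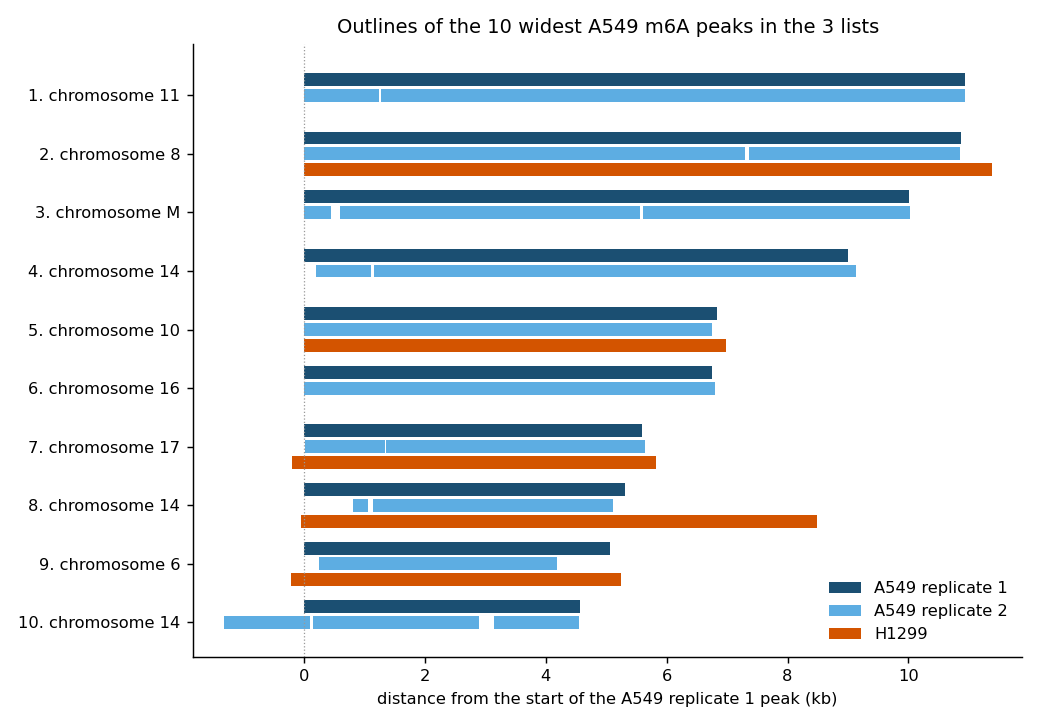
Outlines of the 10 widest regions, as bars against the distance in kb from the start of the A549 replicate 1 peak, with replicate 1 in dark blue, replicate 2 in light blue and H1299 in orange. Replicate 2 has 1 to 3 peaks over each region, while H1299 has a peak at 5 of the 10. Replicate 2 covers least of the chromosome 6 region (77.7%) and of region 8 on chromosome 14 (79.8%).

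Of the 10 widest regions, 5 had an H1299 peak and 5 had none. The chromosome M region ran from position 6 to 10021 and was cut into 3 peaks in replicate 2, of which 2 scored 3100. H1299 lists no peak on chromosome M, against 2 in A549 replicate 1 and 4 in replicate 2. At chr14:105407599-105416594, 8996 bp wide, replicate 2 has 3 peaks of 910, 6540 and 1429 bp. The last of them also runs into the next region, chr14:105416628-105421197 (4570 bp), which begins 33 bp further on. H1299 has no peak over either, so the pair forms a stretch seen in A549 lists alone among the 3. The region at chr16:2811554-2818297 (6744 bp) matched 1 replicate 2 peak of 6787 bp with a score of 342.5, and again had no H1299 peak.

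Other very wide regions were found in both lines. The region chr10:129900853-129907682 was 6830 bp wide in replicate 1, 6745 bp in replicate 2 and 6985 bp in H1299. Its score was 213 in replicate 2, below the regions' median of 455, and 3100 in H1299, the score that 264 H1299 peaks share. The region chr6:151669848-151674915 had the same combination. It was 5068 bp wide in replicate 1 and 3937 bp in replicate 2, where its score was 66.8, and lay within an H1299 peak of 5457 bp that scored 3100. At chr17:17696239-17701829 (5591 bp), scores were high in both lists: replicate 2 has 2 peaks, of which the wider (4271 bp) scored 1451, and H1299 has 1 peak of 6020 bp that scored 1828. At chr14:19886466-19891778 (5313 bp), the standing within each list was the other way round. The wider replicate 2 peak scored 2093, above the regions' median of 455. The H1299 peak of 8533 bp scored 255, below the H1299 list's median of 272. A region on chromosome 22 has nearly the same replicate 2 score, H1299 width and H1299 score. The values of these regions may not be independent.

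The highest replicate 2 score, 3199, belonged to chr22:46316248-46319300, a region of 3053 bp with 1 replicate 2 peak of 3019 bp and no H1299 peak. In all, 16 replicate 2 peaks reach 3100 or more, and 15 of the 1427 regions hold such a peak. Ties at 3100 were ordered by width. After the chromosome 11, 8 and M regions comes chr16:21845933-21849201 (3269 bp), with a widest replicate 2 peak of 2755 bp and an H1299 peak of 3459 bp that also scored 3100. The 4 regions with an H1299 score above 3100 measured 1047 to 1611 bp. First was chr7:5410006-5411052 (1047 bp, H1299 score 3230, replicate 2 score 1656). Next were chr5:17275304-17276914 (1611 bp, 3186 and 2237), chr2:201548200-201549443 (1244 bp, 3169 and 424) and chr12:94034049-94035406 (1358 bp, 3122 and 871).

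The regions as a whole were mostly little over the threshold. Their median width was 1327 bp, with quartiles of 1131 and 1698 bp, and 602 of 1427 were under 1250 bp. At 3000 bp or more there were 44. Just inside the threshold, at 1000 bp, were chr1:2115923-2116922, chr17:79801032-79802031 and chr19:1206355-1207354, with replicate 2 peaks of 1102, 983 and 950 bp. Just outside it, at 999 bp, were chr10:47134023-47135021, chr15:55652160-55653158 and chr16:89661737-89662735, with replicate 2 peaks of 860, 673 and 963 bp.

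Overlap with replicate 2 was used by the rule, and is given as a description. Of the 1441 replicate 1 peaks of at least 1000 bp, 1427 (99.0%) met a replicate 2 peak, as did 14022 (59.3%) of the narrower ones. How wide the region was in replicate 2 was not used. The widest replicate 2 peak over a region had a median of 1170 bp (quartiles 927 and 1529), and in 977 regions (68.5%) it too reached 1000 bp. This share was 49.8% of the 602 regions under 1250 bp, 73.4% of those from 1250 to 1499 bp, 83.4% from 1500 to 1999 bp, 91.5% from 2000 to 2999 bp and 100% of the 44 above. Among the narrowest regions, 300 of 602 were thus also wide in the other immunoprecipitation. Over all 1427 regions the widths in the 2 lists had a Spearman rank correlation of 0.64, given as a description of regions that share their libraries.

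**Figure D2:**
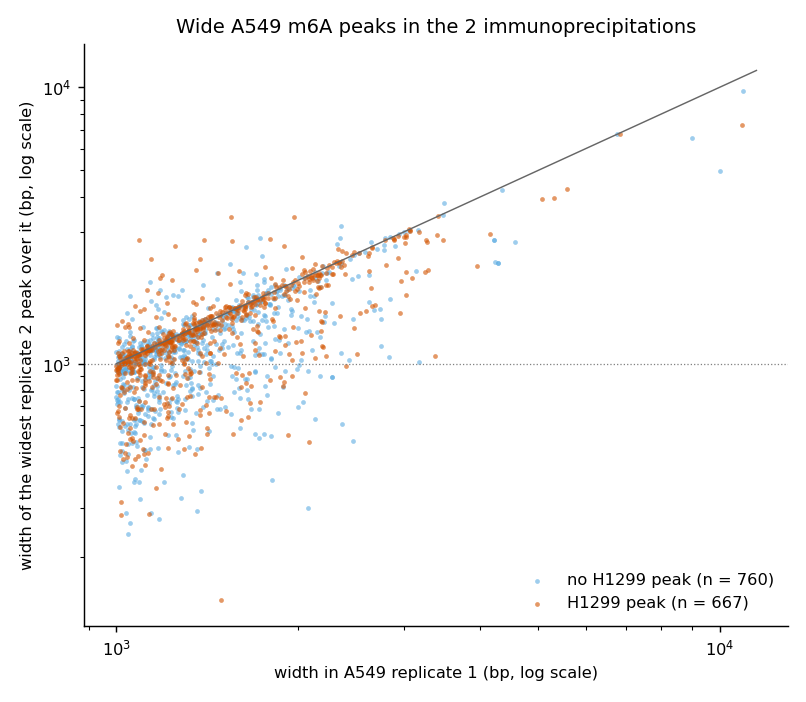
Width of each of the 1427 regions in A549 replicate 1 against the widest replicate 2 peak over it (bp, log scales), coloured by whether H1299 has a peak there. The solid line marks equal widths and the dotted line 1000 bp. On or above the dotted line lie 977 regions. Most points fall on or below the solid line, which the choice by replicate 1 width favours.

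Replicate 2 covered 88.0% of the bases of the regions. In 909 regions (63.7%) at least 90% of the width was covered, and in 75 (5.26%) less than 50%. The least covered was chr19:16212409-16213788, where a replicate 2 peak of 347 bp shared 10 bp with a region of 1380 bp. At chr5:10082-11574, 1493 bp wide and close to the chromosome's first base, 2 replicate 2 peaks of at most 140 bp covered 16.7%, while an H1299 peak of 2217 bp with a score of 3100 covered it whole.

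Most regions were a single peak in both lists. A single replicate 2 peak lay over 1116 regions (78.2%), 2 over 272, 3 over 35 and 4 over 4. The split share rose with width, from 16.9% under 1250 bp to 52.3% at 3000 bp or more. Gaps between the pieces were short, with a median of 43.5 bp and quartiles of 22.3 and 72.8 bp, although the longest was 1351 bp. In the 1116 pairs of a region and its single replicate 2 peak, replicate 2 starts lay a median of 12.5 bp inside the region's start. Replicate 2 ends shifted by a median of -15 bp, so replicate 2 peaks were slightly shorter at each side. Among all regions, 81 had a replicate 2 peak that also met another replicate 1 peak. Such regions were not left out of the pairs. Starts matched within 50 bp in 58.6% of pairs, ends in 55.0% and both in 31.9%. The replicate 2 peak lay inside the region in 46.9% of pairs and enclosed it in 13.3%. The regions were chosen for width in replicate 1 alone, which favours shorter replicate 2 peaks. The direction of these shifts is therefore a description, not a trait of replicate 2.

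Wide regions also had high replicate 2 scores. The best score over a region had a median of 455 (quartiles 250.5 and 826), against 113 (76.1 and 188) for the 14022 narrower peaks found in both replicates. The median of the whole replicate 2 list was 86.2, and 1385 regions (97.1%) stood at or above it. The narrower peaks found in both replicates passed it at their median of 113 but not at their lower quartile of 76.1. Overlap with replicate 2 was required in both classes, and the score is the best of up to 4 peaks over a region. The median score rose from 336 in regions under 1250 bp to 804 from 2000 to 2999 bp and 1680 at 3000 bp or more. The width comes from one A549 immunoprecipitation and the score from the other, but the labels do not say whether they came from separate cultures. Scores under 100 remained at 62 regions, among them chr16:30792692-30793869 at 51.0, the lowest of all.

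The wide regions overlapped the H1299 list less often than narrower reproducible peaks did. An H1299 peak lay over 667 of 1427 regions, or 46.7% (interval 44.1 to 49.4), and over 8371 of 14022 narrower reproducible peaks, or 59.7% (58.9 to 60.5). Over all peaks of replicate 1 the share was 55.6%. The difference between wide and narrower peaks was -13.0 percentage points (-15.7 to -10.2, normal approximation, counting error only). A wide interval can meet another peak more easily, but with the central 200 bp of each peak the shares were 46.3% and 59.7%, beside 55.7% over the list. The lower share was not a step at 1000 bp. It stood at 51.4% (48.2 to 54.6) for peaks under 100 bp, 65.6% for peaks of 100 to 199 bp, 60.5% at 300 to 499 bp, 47.4% (44.9 to 49.9) at 700 to 999 bp and 44.7% (40.7 to 48.8) at 1000 to 1249 bp. Above 2000 bp it was higher again, 56.7% (48.8 to 64.4) to 2999 bp and 59.1% (43.2 to 73.7) beyond, where few regions make the intervals wide. Against the peaks of 700 to 999 bp alone, the difference was -0.69 percentage points. When the replicate 2 list was used on its own in place of replicate 1, the shares were 47.0% of 1163 wide and 51.5% of the narrower peaks, a difference of -4.46 percentage points. The share of wide peaks thus stood at nearly the same level in both A549 lists, and the size of the gap depended on which narrower peaks it was set against.

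**Figure D3:**
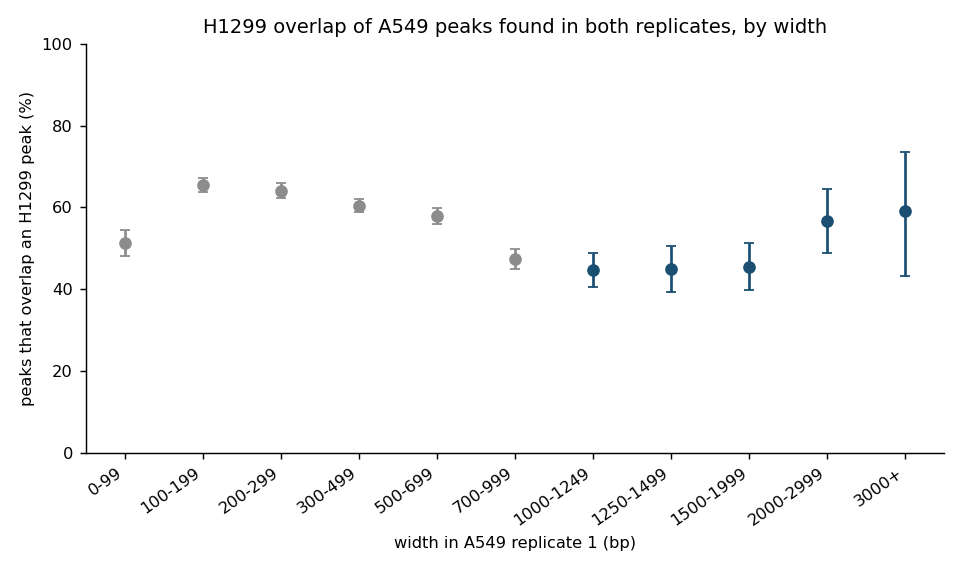
Percentage of A549 replicate 1 peaks found in replicate 2 that overlap an H1299 peak, by width in bp, with exact 95% binomial intervals; widths of 1000 bp and more are in blue. The share is 51.4% under 100 bp, 65.6% at 100 to 199 bp, 44.7% at 1000 to 1249 bp and 59.1% at 3000 bp and more.

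Where H1299 had a peak, it was a wide one at 652 of 667 regions. In these (45.7% of all regions) the H1299 peak itself measured at least 1000 bp, against 39.9% of the narrower reproducible peaks and 38.1% of all replicate 1 peaks, so for wide H1299 peaks the order of the classes turned. The median H1299 width, counted once per A549 peak, was 2122 bp over the wide regions and 1461 bp over the narrower peaks. The region lay wholly inside its H1299 peak in 449 of 665 cases with 1 such peak (67.5%), and the H1299 peak was a median of 1.39 times as wide. In 478 regions (33.5%) the peak was at least 1000 bp in all 3 lists. Of the H1299 list, 646 peaks met a region, which is 1.65% of all and, with 629 of 13994, 4.49% of those of at least 1000 bp. These shares are bounded by the list sizes, with 1427 regions beside 39235 H1299 peaks. The same share for all replicate 1 peaks was not computed, so they do not measure how far the lines differ.

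The H1299 peaks over wide regions had a lower median score than those over narrower peaks, but not at every width. The median was 320 (quartiles 135 and 879) at 667 wide regions and 645 (221 and 1607) at 8371 narrower peaks. By width it was 417 at 700 to 999 bp, 255 at 1000 to 1249 bp and 1503 at the 26 regions of 3000 bp or more that had an H1299 peak. The median of the H1299 list is 272, and 368 of the 667 (55.2%) stood at or above it. At the top, the classes were alike: 6.45% of the wide and 6.62% of the narrower peaks with an H1299 peak reached 3100 or more. An H1299 peak counts once for each A549 peak under it. Thus 43 regions and 554 narrower peaks reached 3100, from a list with 311 such peaks. The medians and shares by class describe A549 peaks, not distinct H1299 peaks. With H1299 peaks at or above the list's median score alone, the shares with a peak were 25.8% and 42.0%.

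Regions that were strong in A549 replicate 2 were found in H1299 more often. Ordered by replicate 2 score in 4 groups of equal size, the share with an H1299 peak was 34.8% (29.9 to 40.0) in the lowest group, then 42.3%, 47.3% and 62.5% (57.2 to 67.5) in the highest. The median H1299 score rose alongside, from 235 in the lowest group to 588 in the highest. Regions with an H1299 peak had a median replicate 2 score of 565, and those without one 391. Their replicate 1 widths had medians of 1355 and 1303 bp. Width went with the score groups too, from a median of 1218 bp in the lowest to 1635 bp in the highest. Of the 760 regions with no H1299 peak, 25 lay within 1000 bp of one, 239 within 10000 bp and 59 over 100000 bp away. The median distance was 17.9 kb.

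The regions were concentrated on a few chromosomes. Chromosome 19 held 164, chromosome 17 held 156 and chromosome 16 held 134, together 31.8% of the regions against 17.8% of all replicate 1 peaks. Regions made up 11.8% of the replicate 1 peaks of chromosome 16, 10.5% of those of chromosome 17 and 9.75% of those of chromosome 22. The lowest shares were on chromosome 4 (1.50%, 16 regions) and chromosome 13 (1.66%, 7 regions). Replicate 2 has a similar layout: peaks of at least 1000 bp made up 7.27% of its list on chromosome 16 and 7.39% on chromosome 17, but 0.963% on chromosome 4. The 3 chromosomes 16, 17 and 19 held 33.5% of the wide replicate 2 peaks, against 20.5% of all replicate 2 peaks. In H1299 they held 8.68% of the wide peaks and 8.59% of all peaks. The share of wide peaks there lay between 27.2 and 38.2% on the 22 chromosomes with at least 10 regions. Width thus varied by chromosome in both A549 lists, and less, in proportion to its level, in the H1299 list.

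**Figure D4:**
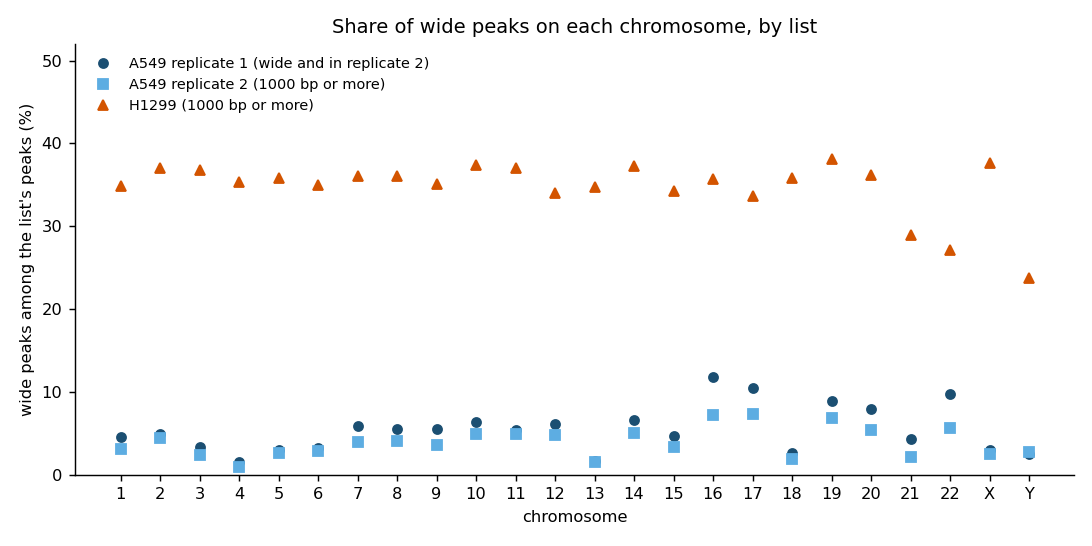
Percentage of each list's peaks that are wide, by chromosome (chromosome M left out): regions of A549 replicate 1 as circles, A549 replicate 2 peaks of at least 1000 bp as squares and H1299 peaks of at least 1000 bp as triangles. Both A549 lists stand highest on chromosomes 16 and 17 and at 1.50 and 0.963% on chromosome 4, while H1299 is at 35.7 and 33.6% on chromosomes 16 and 17 and 35.3% on chromosome 4.

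The share with an H1299 peak also differed between chromosomes, within wide counting intervals. It was 30.9% (19.1 to 44.8) of 55 regions on chromosome 22 and 35.9% (28.4 to 44.0) of 156 on chromosome 17. It was 56.1% (48.1 to 63.8) of 164 on chromosome 19 and 67.6% (50.2 to 82.0) of 37 on chromosome 5. On 18 of the 22 chromosomes with at least 10 regions, the share was below that of the narrower reproducible peaks. The exceptions were chromosomes 10, 16, 18 and 19. On chromosome 16, for example, the shares were 48.5% of regions and 45.0% of narrower peaks.

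Of 649 windows of 1 Mb in which a region started, 352 held 1 region, and 60 held 5 or more and together 446 of the 1427. The median distance to the nearest other region was 118 kb, and 17.5% had another within 10000 bp. The fullest window was chr16:30000001-31000000 with 17 regions, of which 12 had an H1299 peak. Among these, chr16:30234244-30237260 measured 3017 bp in replicate 1, 2908 bp in replicate 2 and 3286 bp in H1299, with a score of 3100 in both scored lists. At chr16:30535320-30537501 the widths were 2182, 2090 and 3785 bp, and the scores 1493 and 1046. At chr16:30958367-30960182 they were 1816, 1733 and 2739 bp, with scores of 1438 and 417. A pair of weaker neighbours, chr16:30790381-30791427 and chr16:30792692-30793869, were separate in A549 and lay under 1 H1299 peak of 6360 bp that scored 264. So the densest window held regions from the top to the bottom of the score range.

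Other dense windows held few regions with an H1299 peak. In chr17:73000001-74000000 none of 10 regions had an H1299 peak, while 10 of 36 narrower reproducible peaks there did. Their replicate 2 scores were moderate, with a median of 482 and a range of 160 to 837. In chr14:105000001-106000000, 2 of 10 regions and 12 of 38 narrower peaks had one. In chr16:1-1000000 the counts were 3 of 11 and 10 of 43. By contrast chr11:65000001-66000000 had 7 of 14, and 31 of its 42 narrower reproducible peaks. In chr17:79000001-80000000, with 15 regions and a median replicate 2 score of 972, there were 6, and 20 of 56 narrower peaks. These examples were taken from the 14 fullest windows after their values were seen. Over the 14 together, 66 of 163 regions (40.5%) had an H1299 peak, beside 41.9% of their 573 narrower reproducible peaks.

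Some regions are parts of a longer stretch. There were 42 neighbouring pairs with at most 1000 bp between them, at a median gap of 223 bp. A single H1299 peak ran across 17 of the pairs and a single replicate 2 peak across 8. Neighbours mostly shared their H1299 state: both had a peak in 18 pairs, neither in 20 and 1 of the 2 in 4. In 17 of the 18 it was a single H1299 peak across both, so agreement in those pairs was fixed. The closest pair, chr22:30636828-30638525 and chr22:30638529-30640111, was 3 bp apart and had no H1299 peak. At chr9:139368500-139370469 and chr9:139370480-139372028, 10 bp apart, 1 peak spanned both regions in replicate 2 and in H1299. Compared with narrower peaks, the regions stood more alone: 28.7% had another replicate 1 peak within 1000 bp, against 43.9% of the narrower reproducible peaks. The median gap was 5083 against 1564 bp. Width was chosen in this same list, and stretches joined into 1 wide peak cannot count as neighbours, so this is a description.

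Some regions have the same outline at separate places, and the values of such regions may not be independent. A comparison of outlines, made after the values were seen, found 9 pairs of regions (18 in all). In each pair, every edge in both A549 lists matched within 4 bp, read in the same or the opposite direction, and replicate 2 scores within 3%. Of these, 2 pairs lie on chromosomes X and Y at an offset of exactly 50000 bp. The first, chrX:1719443-1721205 and chrY:1669443-1671205, measured 1763 bp in replicate 1, 1662 bp in replicate 2 (score 2301) and 1830 bp in H1299 (score 537) at both places. The second, chrX:2404556-2408778 and chrY:2354556-2358778, measured 4223 bp and 2799 bp at both places, with replicate 2 scores of 596, and had no H1299 peak. Chromosomes X and Y share the pseudoautosomal sequence near the end of the short arm, which the genome build lists on both, and reads from the copies cannot be told apart.

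**Figure D5:**
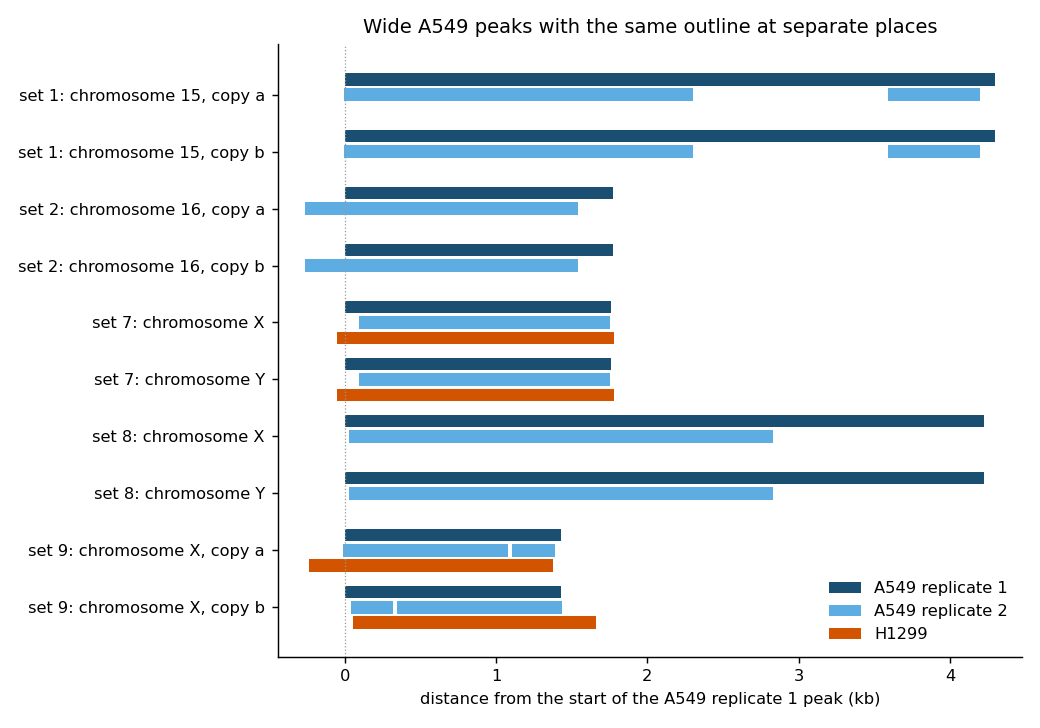
Outlines of 5 of the 9 pairs, as bars against the distance in kb from the start of the A549 replicate 1 peak, with replicate 1 in dark blue, replicate 2 in light blue and H1299 in orange. Both members of a pair have the same bars in each list, mirrored in the chromosome X pair of 1429 bp.

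Further pairs lie on the same chromosome. On chromosome 15, regions of 4296 and 4294 bp at chr15:82763620-82767915 and chr15:83140206-83144499 each had replicate 2 peaks of 2310 and 2308 bp and of 609 bp, with scores of 1666 and 1644 for the wider ones. On chromosome 16, chr16:29465768-29467537 and chr16:30205110-30206879 were both 1770 bp wide, with a replicate 2 peak of 1802 bp. A little further on, chr16:29475768-29476878 and chr16:30215113-30216227 formed another pair at nearly the same offset, 739345 against 739342 bp. On chromosome X, chrX:52936153-52937581 and chrX:52976468-52977896 were both 1429 bp wide and mirrored each other, with H1299 peaks of 1611 bp at both and scores of 918. A further 2 pairs lie on chromosome 8, at chr8:145194107-145195463 and chr8:145439315-145440671 (1357 bp, score 582 at both), and at chr8:145317761-145320036 and chr8:145486847-145489122 (2276 bp, 145 at both). The remaining pair, chr5:52095984-52096995 and chr8:23154712-23155720, joins plain single peaks of about the same width. Whether the members of a pair share sequence was not tested. Counting 1 region of each pair left 1418 regions, of which 46.9% had an H1299 peak. Looser likenesses remain in this count. They include chr14:19886466-19891778 with a region on chromosome 22, and chr16:21845933-21849201 with chr16:30234244-30237260. At both chromosome 16 regions, the widest replicate 2 peak started 4 bp inside the region and scored 3100. The H1299 peak started at the region's first base and also scored 3100. The values of such regions may not be independent.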

How the data were processed

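The peak lists were deposited by the authors with a start, an end and a score per peak. Peak names start with MACS, per the file contents. Per the submitters' processing notes, the tools included Bowtie and TopHat and the build was hg19; neither versions nor roles are stated. The version of the peak caller, its thresholds and its use of the input are not given in the sources used here. Each list belongs to 1 immunoprecipitation. The authors' score has no stated scale. The RNA tables hold a signal per gene, scaled per library by the authors on a basis that no source here states.

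Positions are 1-based and on hg19. Widths are the deposited end minus the deposited start, which counts from 0, so a width is the printed end minus the printed start plus 1. Overlap means at least 1 shared bp. Overlaps, covered bases and shares were computed in Python 3.11.15 with numpy 2.4.6, pandas 2.3.3 and scipy 1.17.1, and the code was tested on simulated intervals. Named regions were the 10 widest, the 5 of highest score in each scored list, the 5 widest without an H1299 peak, the 3 at each side of the threshold and the fullest windows. Regions named for low coverage, for a dense window, as neighbours or for the same outline were chosen after their values were seen. The members and rules were chosen with earlier results of these data known. Host genes, sequence motifs and exon positions were not analysed here, because no annotation or sequence of hg19 was used. Grouping follows the sample titles.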

Additional observations from a re-analysis of the deposited data

How the results depend on the processing

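The count of 1427 regions was 2330 at a width of at least 800 bp and 509 at 1500 bp, and 1163 to 1441 with 1 A549 list left out. It moved by less than 1.5 times with 50% coverage by replicate 2 (1352), a replicate 2 peak of 1000 bp too (977) or replicate 2 peaks at or above the median score (1385). The share with an H1299 peak (46.7%) was 25.8% with H1299 peaks at or above the median score, and 46.8 to 47.0% with 1 A549 list left out. The difference from narrower peaks (-13.0 percentage points) was -16.2 with those H1299 peaks, -9.38 to -4.46 with 1 A549 list left out, and -0.69 against peaks of 700 to 999 bp, a comparison added after seeing the data. It was negative in each run that counted H1299 peaks of any width. Even so, 46.7% lies within the interval of the 700 to 999 bp peaks (44.9 to 49.9). Its sign did not hold with only H1299 peaks of at least 1000 bp counted, at 45.7% of regions and 39.9% of narrower peaks. The 800 and 1500 bp thresholds were not run for this difference. The median width of replicate 2 peaks over the regions was 1065 bp over all of them, 1214 bp for those that cover 50% of a region and 1170 bp for the widest of each region. The median H1299 score (320) was 317 as a mean per region and 321 over the central 200 bp. Motif counts and knockdown values of host genes were planned and not run, as no hg19 sequence or annotation was used. No paired analysis was possible because no result comes from a test. Depth limits cannot be given, since the lists hold no read counts.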

Other observations

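The 14 replicate 1 peaks of at least 1000 bp that met no replicate 2 peak measured 1044 to 2120 bp. The widest was chr21:9838923-9841042 (2120 bp), with no H1299 peak. Of the 14, 7 had an H1299 peak, among them chr1:171509310-171511403 (2094 bp, under an H1299 peak of 2455 bp with a score of 752) and chr10:101715046-101716331 (1286 bp, under one of 2111 bp with a score of 1389). The nearest replicate 2 peak lay 6 bp away at the closest and 2337 bp away at the median.

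From the side of replicate 2, 986 of its 1163 peaks of at least 1000 bp (84.8%) met one of the 1427 regions, and 1109 met some peak of replicate 1.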
